A study of Prunus persica with 2 samples.

Results

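The miRNAs described here are known miRNAs of peach fruit whose family number is 1000 or higher, chosen by their read count in the small RNA library (10 or more), without miR3946 and miR5229. The fruit came from ‘Troubador’ (spelled ‘Troubadour’ in the paper), a yellow-fleshed peach (Prunus persica) cultivar grown in the field in Nanjing. It was picked on days 35, 55, 75, 90 and 105 counted from full bloom. For the small RNA library, total RNA of these stages was mixed in equal amounts. There was 1 small RNA library and 1 degradome library, neither with a replicate, so stages cannot be told apart and no test between conditions could be made. The small RNA list holds 886 sequences, of which 557 are known miRNAs and 329 are arms of predicted miRNAs. Of the known miRNAs, 454 carry a number of 1000 or higher and 103 a number under 1000, and 54 of the 454 are described here.

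Family numbers are given to plant miRNAs in the order in which they are registered, so the low numbers hold families found early, among them those that most land plants share beside others known from few species, while the high numbers were mostly given to small RNAs found later by deep sequencing of a single species. A plant miRNA is cut from a hairpin precursor by a Dicer-like enzyme, is usually 21 nt long and often starts with uridine, which favours loading into AGO1, the protein that cuts target transcripts. Small RNAs of 24 nt are in most cases made by another Dicer-like enzyme and take part in silencing of repeats. Some sequences that carry a miRNA name are known to lie within ribosomal or transfer RNA.

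The 10 most abundant sequences are shown from 5′ to 3′ because they hold most of the reads, with bases 2 to 8 (the seed) in capitals.
miR5077: uUCACGUCggguucacca
miR2916: gUUGGGGGcucgaagacgaucaga
miR2628: cAGGAAAGaaugugaugagua
miR2118: cUACCGAUuccacccauuccga
miR2911: gCCGGGGGacggacuggga
miR4376: uCGCAGGAgagauggcacuguc
miR1511: aCCUGGCUcugauaccauaa
miR5244: uGUCGCAUgaagauuguuggu
miR1886: uGUGAGAAugugaagaugaaaug
miR5632: uUGAGAUUaauagauggauaa

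miR5077 was the most abundant of the 54 miRNAs with 3027 reads (exact Poisson 95% interval 2920 to 3137), and miR2916 followed with 2132 (2042 to 2224). No other exceeded 1000 reads. miR2628 had 895 reads (837 to 956), miR2118 had 810 (755 to 868) and miR2911 had 739 (687 to 794), and the intervals of these neighbours in the order overlap. miR2118 belongs with miR482 to a group known for cutting transcripts of NBS-LRR disease resistance genes, whereas miR2911 is known as a fragment of large-subunit ribosomal RNA and miR2916 carries a sequence known from small-subunit ribosomal RNA. miR4376, which in tomato is known to cut the transcript of a calcium pump, had 500 reads (457 to 546). miR1511 had 325 (291 to 362), miR5244 had 247 (217 to 280), miR1886 had 213 (185 to 244) and miR5632 had 154 (131 to 180). All intervals cover counting error only, since the reads were amplified and carry no molecular identifiers.

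The counts of the 54 miRNAs were spread unevenly. Together they had 10454 reads, of which miR5077 alone held 29.0% (95% Clopper-Pearson interval 28.1 to 29.8%), the 2 highest 49.3%, the 5 highest 72.7% and the 10 highest 86.5%. The median was 24.5 reads, with quartiles of 14 and 81. Besides the 2 miRNAs over 1000 reads, 10 had from 100 to 1000, 20 had from 20 up to under 100 and 22 had from 10 to 19. In the last class the intervals of all neighbours overlap, so an order among these miRNAs was not detectable at this depth.

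**Figure D1:**
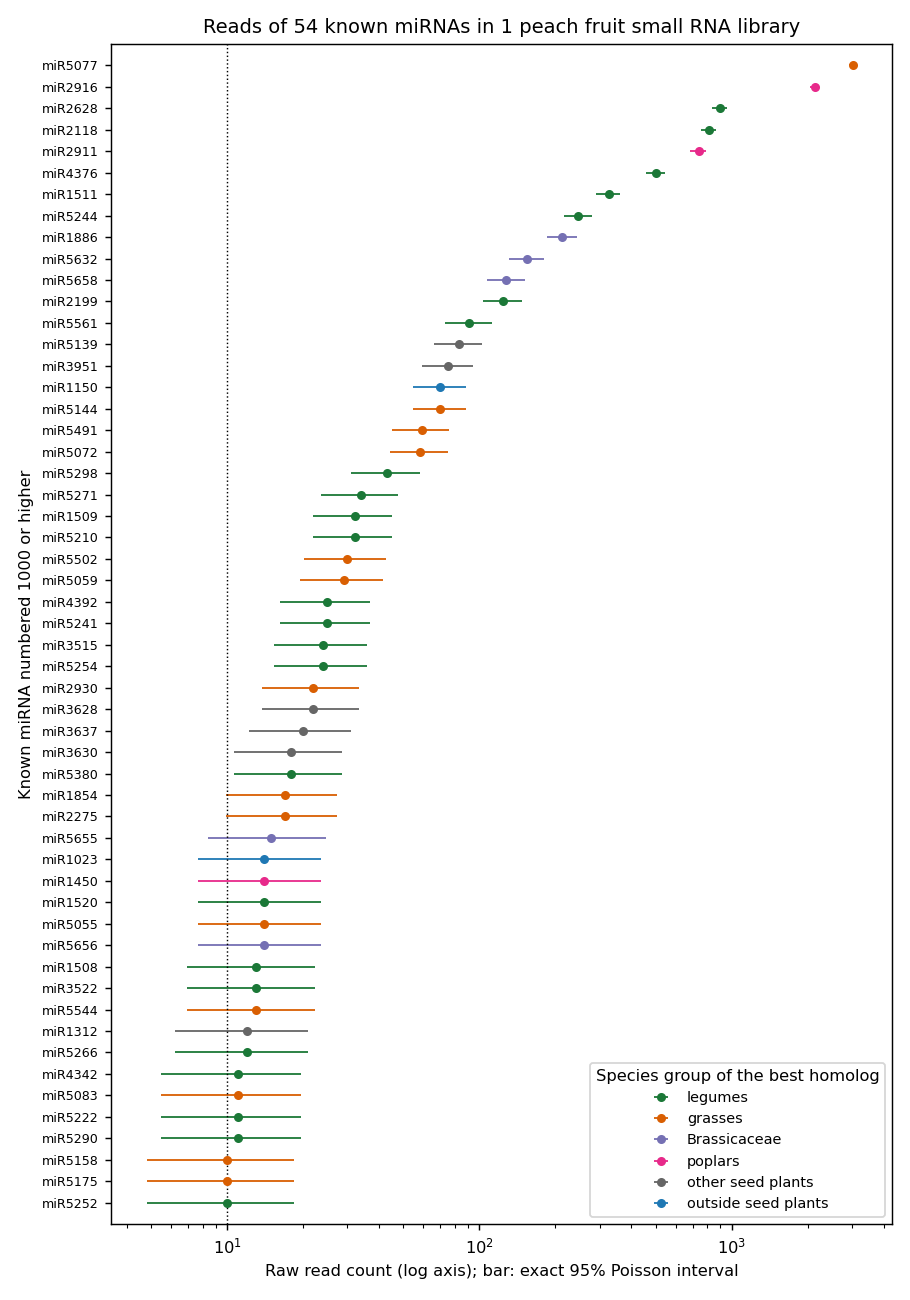
Raw read count of each of the 54 known miRNAs numbered 1000 or higher (log axis), from 1 small RNA library, with points coloured by the species group of the best homolog, exact 95% Poisson intervals as bars and the minimum of 10 reads as a dotted line. miR5077 and miR2916 stand above 1000 reads, and the intervals of miRNAs under 20 reads overlap with one another.

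As a share of the whole list these reads are few. The 54 miRNAs held 0.464% of the 2254860 reads of known miRNAs (95% interval 0.455 to 0.473%), although they are 54 of the 92 known miRNAs with 10 or more reads. Most reads of the known list belong to miR156 and miR157, and with these set aside the share was 5.95% (5.84 to 6.06%). The 37 known miRNAs numbered under 1000 with 10 or more reads had 2242159 reads with a median of 403 and quartiles of 58 and 7402. Of the known miRNAs numbered 1000 or higher, 11.9% (9.06 to 15.2%) were included, against 35.9% (26.7 to 46.0%) of the lower-numbered miRNAs that reached 10 reads.

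The minimum of 10 reads chose the miRNAs and is close to what counting error allows. Just inside it lie miR5158, miR5175 and miR5252 with 10 reads each (interval 4.80 to 18.4) and miR4342, miR5083, miR5222 and miR5290 with 11. Just outside it lie miR1171, miR3695, miR4221, miR5293, miR5368 and miR5672 with 9 reads each (4.12 to 17.1). Of the miRNAs left out by name, miR3946 had 1294 reads and miR5229 had 1.

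In length, the 54 miRNAs had 2 frequent classes. There were 19 of 21 nt, which is 35.2% (95% interval 22.7 to 49.4%), and 16 of 24 nt, which is 29.6% (18.0 to 43.6%). Another 8 were 22 nt long, 3 each were 18, 19 and 20 nt long and 2 were 23 nt long. Among the lower-numbered miRNAs with 10 or more reads, 27 of 37 were 21 nt long, or 73.0% (55.9 to 86.2%), and 2 were 24 nt long, or 5.41% (0.661 to 18.2%). Among the 399 miRNAs numbered 1000 or higher with under 10 reads, 25.6% (21.4 to 30.1%) were 21 nt and 26.3% (22.1 to 30.9%) were 24 nt long. No test was made over these sequences, which are not replicates of a condition.

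Counted by reads, the picture of the lengths was set by single miRNAs. The 18-nt class held 29.9% of the 10454 reads, 3027 of its 3122 reads being miR5077, and the 24-nt class held 23.6%, of which miR2916 gave 2132 of 2470. The other 24-nt miRNAs had between 10 and 59 reads, with miR5491 (59 reads), miR5298 (43) and miR5502 (30) the highest of them. The 21-nt class held 17.0% of the reads, led by miR2628, and the 22-nt class 14.5%, led by miR2118 and miR4376. The 6 miRNAs of 18 or 19 nt were miR5077, miR2911, miR2199 (124 reads), miR5561 (91 reads), miR5139 (83 reads) and miR5266 (12 reads). Such a length was found in 0 of the 37 lower-numbered miRNAs with 10 or more reads. It was found in 46 of the 399 miRNAs numbered 1000 or higher with under 10 reads, a share similar to that of the 54.

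Uridine was the most frequent first nucleotide, in 24 of the 54 miRNAs or 44.4% (95% interval 30.9 to 58.6%), followed by adenosine in 16, cytidine in 7 and guanosine in 7. The lower-numbered miRNAs with 10 or more reads started with uridine in 24 of 37 cases, or 64.9% (47.5 to 79.8%), and the miRNAs numbered 1000 or higher with under 10 reads in 45.9% (40.9 to 50.9%). By reads uridine had 45.8%, guanosine 28.5%, cytidine 19.1% and adenosine 6.66%, with miR2916 and miR2911 giving most reads of guanosine and miR2628 and miR2118 most of cytidine. Of the 54 miRNAs, 14 combined a length of 21 or 22 nt with uridine at the start, or 25.9% (15.0 to 39.7%), against 21 of the 37 lower-numbered miRNAs, or 56.8% (39.5 to 72.9%). These 14 were miR4376, miR5244, miR5632, miR3951 (75 reads), miR5144 (70), miR1509 (32), miR5210 (32), miR5059 (29), miR1854 (17), miR2275 (17), miR1450 (14), miR5055 (14), miR1508 (13) and miR3522 (13), and together they had 1227 reads or 11.7% of the reads of the 54.

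**Figure D2:**
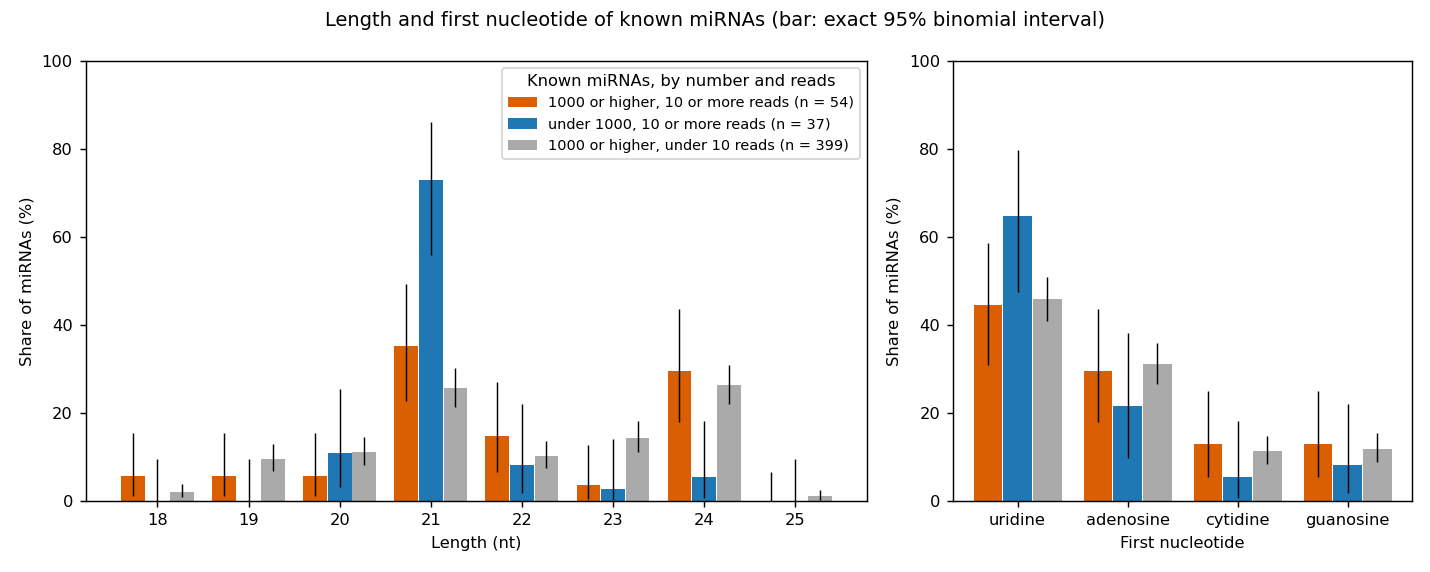
Share of known miRNAs (%) by length in nt and by first nucleotide, for the 54 miRNAs numbered 1000 or higher with 10 or more reads, the 37 numbered under 1000 with 10 or more reads and the 399 numbered 1000 or higher with under 10 reads, with exact 95% binomial intervals as bars. The 54 miRNAs have 35.2% at 21 nt and 29.6% at 24 nt, and the 37 lower-numbered miRNAs have 73.0% at 21 nt.

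The homolog by which each miRNA was named gives the species in which a like sequence had been registered. For 24 of the 54 miRNAs it came from a legume, which is 44.4% (95% interval 30.9 to 58.6%), with 14 from Medicago truncatula, 8 from Glycine max and 1 each from Glycine soja and Arachis hypogaea. These legume-named miRNAs were miR2628, miR2118, miR4376, miR1511, miR5244, miR2199, miR5561, miR5298, miR5271 (34 reads), miR1509, miR5210, miR4392 (25 reads), miR5241 (25), miR3515 (24), miR5254 (24), miR5380 (18), miR1520 (14), miR1508, miR3522, miR5266, miR4342, miR5222, miR5290 and miR5252. They had 3344 reads in all and a median of 25. Peach belongs to the rose family, and for none of the 54 was the named homolog from that family. Among the lower-numbered miRNAs with 10 or more reads, such a homolog was named in 1 of 36 cases, from Malus domestica. No miRNA numbered 1000 or higher with under 10 reads had one, so its absence is not particular to the 54.

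A grass, that is Oryza sativa for 10, Brachypodium distachyon for 3 and Zea mays for 1, was the source of the homolog of 14 miRNAs or 25.9% (15.0 to 39.7%). These were miR5077, miR5144, miR5491, miR5072 (58 reads), miR5502, miR5059, miR2930 (22 reads), miR1854, miR2275, miR5055, miR5544 (13 reads), miR5083, miR5158 and miR5175, with a median of 19.5 reads. miR2275 is known in grasses for starting the production of phased small RNAs in anthers. Arabidopsis thaliana gave the homolog of miR1886, miR5632, miR5658 (128 reads), miR5655 (15 reads) and miR5656 (14 reads), and poplars gave those of miR2916, miR2911 and miR1450. Other seed plants were the source for miR5139 (Rehmannia glutinosa), miR3951 (Citrus sinensis), miR3628 (22 reads), miR3637 (20 reads) and miR3630 (18 reads), the last 3 from Vitis vinifera, and miR1312 (12 reads, Pinus taeda). The homologs of miR1150 (70 reads) and miR1023 (14 reads) came from the green alga Chlamydomonas reinhardtii and the moss Physcomitrella patens.

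The lower-numbered miRNAs with 10 or more reads were named in 19 of 36 cases after Arabidopsis thaliana, or 52.8% (35.5 to 69.6%), and in 2 cases each after legumes and grasses. For miRNAs numbered 1000 or higher with under 10 reads, legumes had 35.1% (30.4 to 40.0%) and grasses 29.1% (24.7 to 33.8%). The homolog list gives a single best match for each miRNA, so the species group is that of the closest name and not the range of plants that have the family, which was not tested. Where species tie, a single one is named. The paper names miR164 after Arabidopsis thaliana but marks it as identical in poplar, grape and rice too.

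Most of the 54 sequences were not close to the homolog that gave them their name. The distance was taken as edits, the smallest number of substituted, added or missing bases that turns the peach sequence into the homolog over the whole length. miR5083 was identical to rice miR5083, miR5139 and miR1450 were 1 edit away, miR5077, miR2118, miR2911 and miR5244 were 2 edits away, and miR5502 was 3. The remaining 46, or 85.2% (72.9 to 93.4%), were 4 or 5 edits away, which are 34 miRNAs with 4 and 12 with 5. Counted from the first base of each, 8 of the 54 carried the same bases 2 to 8 as their homolog. A shift at the start alone counts here as a difference, as in miR5139, which lacks the first base of its homolog. In length, 29 of the 54 differed from the homolog. Neither count was made for the other groups. In the lower-numbered group with 10 or more reads, 19 of 36 were identical to the homolog and 5 of 36, or 13.9% (4.67 to 29.5%), had 4 or more edits, while in the group numbered 1000 or higher with under 10 reads 93.2% (90.3 to 95.5%) had 4 or 5.

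**Figure D3:**
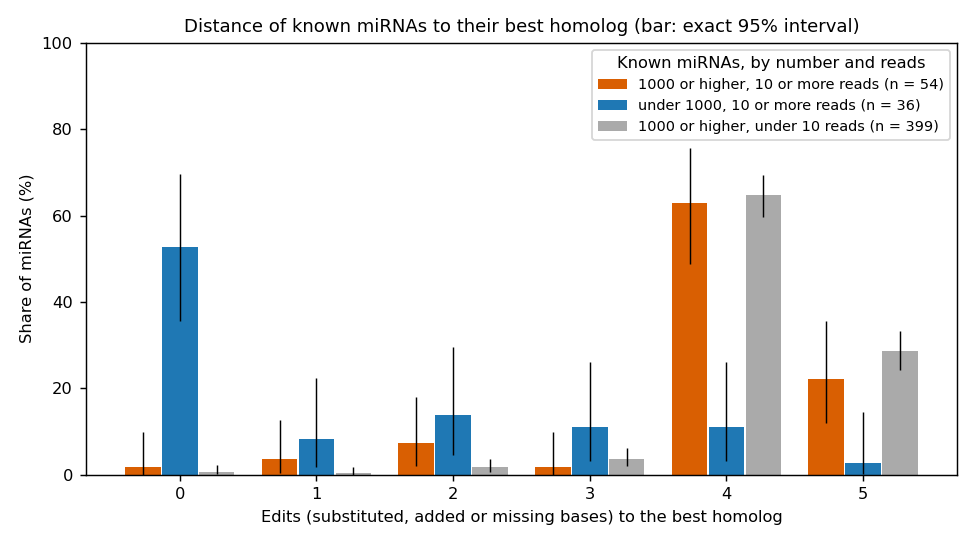
Share of known miRNAs (%) at each number of edits to the best homolog, for the 54 miRNAs numbered 1000 or higher with 10 or more reads, 36 of the 37 numbered under 1000 with 10 or more reads and the 399 numbered 1000 or higher with under 10 reads, with exact 95% binomial intervals as bars. The 54 miRNAs are mostly at 4 edits (34 miRNAs) and 5 edits (12), and 19 of the 36 lower-numbered miRNAs are at 0.

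The 7 miRNAs within 2 edits are shown with their homologs, because they are the closest of the 54 to the sequence behind their name, with the longest shared stretch in capitals.
miR5083: AGACUACAAUUAUCUGAUCA
rice miR5083: AGACUACAAUUAUCUGAUCA
miR1450: UUCAAUGGCUCGGUCAGGUUA
poplar miR1450: UUCAAUGGCUCGGUCAGGUUAc
miR5139: AACCUGGCUCUGAUACCA
Rehmannia miR5139: aAACCUGGCUCUGAUACCA
miR5077: uucaCGUCGGGUUCACCA
rice miR5077: guucgCGUCGGGUUCACCA
miR2118: cUACCGAUUCCACCCAUUCCga
Medicago miR2118: uUACCGAUUCCACCCAUUCCua
miR2911: GCCGGGGGACGGacuggga
poplar miR2911: gGCCGGGGGACGGgcuggga
miR5244: ugucgCAUGAAGAUUGUUGGU
Medicago miR5244: uaucuCAUGAAGAUUGUUGGU

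Among these, miR1450 is the poplar miRNA without its last base and miR5139 the Rehmannia sequence without its first. miR2118 shared 19 bases in a row with the Medicago sequence, the seed included, and differed at the ends. The 4 miRNAs at 2 edits had between 247 and 3027 reads, whereas the identical miR5083 had 11 and those at 1 edit, miR5139 and miR1450, had 83 and 14. At the other end, miR2916 had 2132 reads at 5 edits, its sequence being shifted against poplar miR2916, with which it shared a stretch of 14 bases. With unpaired bases at the ends left uncounted, miR2916 was 2 edits away, and so were miR1511, miR5072, miR5502, miR5222 and miR5290. Of the 54, miR2916 was as close to another homolog on the list (miR3444 of Arabidopsis lyrata, 5 edits) as to its own. For the other 53 their own homolog was the fewest edits away, which was largely set in advance, as the list gives best matches. By shared stretch, miR5077 had 17 bases in common with moss miR894 and 14 with its own homolog. miR1511 had 17 in common with Rehmannia miR5139 and 14 with its own.

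Resemblance to the lower-numbered families was measured as the longest unbroken stretch shared with any of the 103 known miRNAs numbered under 1000. For 49 of the 54 miRNAs this stretch was under 10 nt, with a median over all 54 of 7.5 nt, and for miR5658 it was 10 nt, with miR419. A stretch of 12 nt or more was found for 4 miRNAs, or 7.41% (95% interval 2.06 to 17.9%), which are miR5077, miR4376, miR1511 and miR5139, with 3935 reads in all. The same held for 8 of the 399 miRNAs numbered 1000 or higher with under 10 reads, or 2.01% (0.870 to 3.91%). With the minimum set at 14 nt, miR5077 and miR4376 were left.

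**Figure D4:**
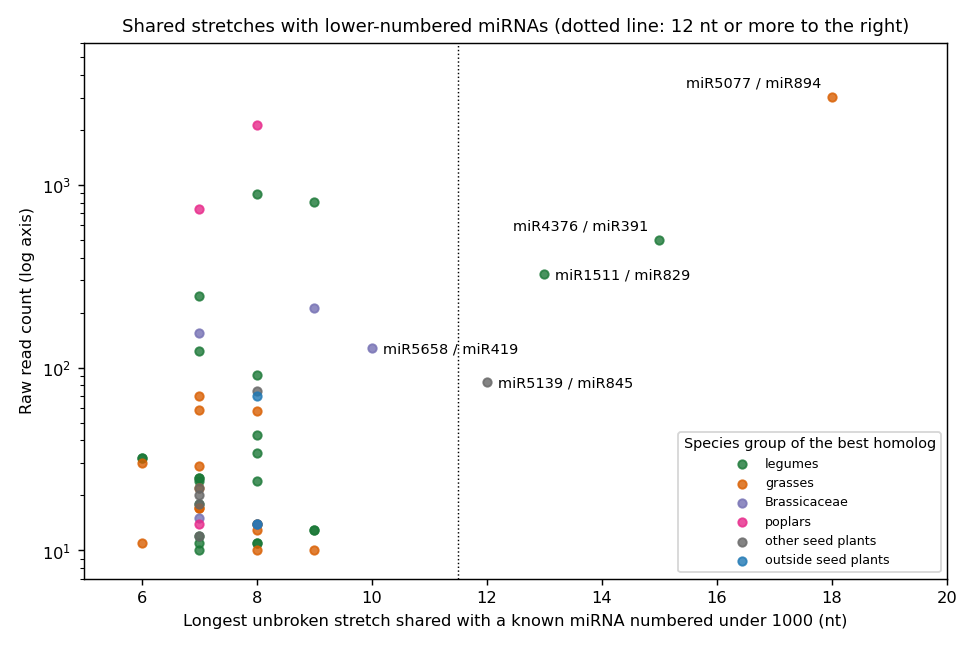
Longest unbroken stretch in nt that each of the 54 miRNAs shares with a known miRNA numbered under 1000, against its raw read count (log axis), coloured by the species group of the best homolog and labelled from 10 nt upward with that partner. miR5077 (18 nt), miR4376 (15 nt), miR1511 (13 nt) and miR5139 (12 nt) lie right of the dotted line, which sets off stretches of 12 nt or more.

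miR5077 lies wholly within miR894, which the list gives with 4429 reads (interval 4300 to 4561), and lacks only its first 2 bases. The shared stretch is in capitals.
miR5077: UUCACGUCGGGUUCACCA
miR894: guUUCACGUCGGGUUCACCA
The names come from rice and from a moss, and over the whole length miR5077 was 2 edits from peach miR894 and 2 edits from rice miR5077. With unpaired ends left uncounted, it was 0 edits from peach miR894 and 1 edit from rice miR5077. Whether some reads were counted under both names was not tested.

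miR4376 shared 15 bases with miR391, a relative of miR390, and the same bases 2 to 8. The families of miR390, miR391 and miR4376 are known as relatives in seed plants, and miR390 is known for starting the small RNAs that regulate auxin response factors. Here miR4376 had 500 reads, while miR390 had 58 (44.0 to 75.0) and miR391 had 1 (0.0253 to 5.57). miR390 shared 6 bases in a row with miR4376.
miR4376: uCGCAGGAGAGAUGGCacuguc
miR391: aCGCAGGAGAGAUGGCgcc
For miR2118, the relatives miR482 and miR472 were set beside it whether or not they passed the minimum. miR2118 shared 9 bases in a row with miR472, which had 403 reads (365 to 444), and 8 edits separated them. The sequence listed as miR482, with 9377 reads, shared 3 bases in a row and was 16 edits away when read in the same direction. The homolog list names it after apple miR482*, the arm opposite to the one that is named miR482, and its first 8 bases pair without a break with 8 bases of miR2118. The stretch shared by miR2118 and miR472 is in capitals.
miR2118: cuaccgauUCCACCCAUuccga
miR472: ucuuucccaaUCCACCCAUgcc
The bases that pair between miR2118 and the sequence listed as miR482 are in capitals.
miR2118: cuaccgauuccaCCCAUUCCga
miR482: GGAAUGGGcuguuugggaug

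miR1511 and miR5139 were like each other and like miR845 and miR829. miR5139 holds the first 17 bases of miR1511 after 1 added base, and both share GCUCUGAUACCA with miR845 (31 reads) and miR829 (10 reads). This stretch is known as the end of the plant initiator methionine tRNA, which primes LTR retrotransposons, and miR845 is known in Arabidopsis for targeting the primer binding site of such elements. Capitals mark the stretch each shares with miR1511, and in miR1511 itself the stretch shared with miR5139.
miR1511: ACCUGGCUCUGAUACCAuaa
miR5139: aACCUGGCUCUGAUACCA
miR845: uaauGCUCUGAUACCAaguugaca
miR829: aGCUCUGAUACCAUgaaggaaguu
Both miR1511 and miR5139 also lie within the hairpin predicted for TBD-623-m0098, which is 100 nt long, with miR1511 starting at base 72 and miR5139 at base 71. The arm listed for this hairpin, TBD-623-m0098-5p, starts at base 11 and had 58 reads. No tRNA sequence was used here, and whether the reads come from the hairpin or from tRNA was not tested.

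Of the 54 miRNAs, 2 more lie within a predicted hairpin. miR2628 starts 5 bases after the arm TBD-623-m0064-3p in the hairpin of TBD-623-m0064 (85 nt) and shares 15 bases with it, so the known list and the predicted list each hold a sequence from this arm. miR2628 had 895 reads and TBD-623-m0064-3p had 248 (218 to 281).
miR2628: CAGGAAAGAAUGUGAugagua
TBD-623-m0064-3p: uauggCAGGAAAGAAUGUGA
miR4376 lies at base 214 of the hairpin of TBD-623-m0123 (292 nt), and the arm listed for it, TBD-623-m0123-3p, starts at base 261 and had 5 reads. Only the 266 predicted hairpins that could be read here were searched, so a miRNA without a match may lie in another. Places in the genome are not given, since no genome was used here.

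In 2 other pairs the resemblance was among the 54 miRNAs themselves. miR5266 shared 16 bases with miR2911, against 7 with the Medicago miR5266 that gave it its name, and had 12 reads (6.20 to 20.96) where miR2911 had 739. miR5655, with 15 reads, and miR5290, with 11, share 17 bases at a shift of 4, although the names come from Arabidopsis thaliana and Medicago truncatula.
miR2911: gcCGGGGGACGGACUGGGa
miR5266: CGGGGGACGGACUGGGgg
miR5655: AGAGAGAUAGACACAUAagaagag
miR5290: gaggAGAGAGAUAGACACAUA
In all, 9 of the 54 miRNAs shared 12 nt or more with a lower-numbered miRNA, a predicted arm or another of the 54. These 9 held 5607 reads or 53.6% of the reads, of which miR5077 gave 3027. The same combined count was not made for other groups of miRNAs, so whether 9 is many cannot be told.

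miR5077, miR5139, miR5072 and miR5059 end in CCA, the triplet that mature tRNAs carry at their 3′ end. They hold 3197 of the 10454 reads, of which 3027 are miR5077. These are 7.41% of the 54 miRNAs, against 2.70% of the lower-numbered miRNAs with 10 or more reads, where miR894 is the single case, 2.51% of the miRNAs numbered 1000 or higher with under 10 reads and 2.87% of all 557 known miRNAs. miR5072 and miR5059, named after grasses, are shown with their homologs, the longest shared stretch in capitals.
miR5072: uucgUUCCCCAGCagagucgcca
rice miR5072: cgaUUCCCCAGCggagucgcca
miR5059: ucguuCCUGGGCAGCAacacca
Brachypodium miR5059: cggCCUGGGCAGCAccacca
Reads of ribosomal and transfer RNA had been removed from the library before miRNAs were named, and the part of such RNA in these counts was not tested.

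A cleavage site in the degradome library, in which a read starts where a transcript was cut, was listed for 12 of the 54 miRNAs, or 22.2% (95% interval 12.04 to 35.6%). Over all 557 known miRNAs this was 20.5%, so the share of the 54 lies near that of the list. Of the lower-numbered miRNAs with 10 or more reads, 23 of 37 had a site, or 62.2% (44.8 to 77.5%). Of the miRNAs numbered 1000 or higher with under 10 reads, 63 of 399 had a site, or 15.8% (12.4 to 19.7%). With a listed p under 0.05, 3 of the 54 were left, or 5.56% (1.16 to 15.4%), against 4.85% of all known miRNAs. This held for 18 of the 37 lower-numbered miRNAs (48.6%). It held for 3 of the 399 with under 10 reads, or 0.752% (0.155 to 2.18%). The 12 miRNAs were miR1023, miR1509, miR1511, miR2911, miR2930, miR5077, miR5083, miR5139, miR5175, miR5266, miR5290 and miR5561, with 19 pairs on 19 transcripts, 7 of the pairs resting on 1 read. Equal raw reads, with normalized reads under them, were listed for miR5561 on ppa009033m and ppa009045m. The same held for miR2930 on ppa013738m and ppa013734m, and for miR5175 on ppa011484m and ppa011386m. Whether such pairs rest on the same reads was not tested. The most abundant miRNA was not the one with the most degradome reads, as miR5077 was listed with 1 degradome read on each of ppa014111m and ppa005720m.

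miR1509 had the most degradome reads with 334 (299 to 372) at nucleotide 152 of ppa020475m. This was the highest position of that transcript, and the listed p was 0.00360. The 22-nt peach sequence is named after a miRNA of the legume Glycine max. It was 4 edits from that miRNA and shared 10 bases in a row with it. The site pairs with 20 of the 22 bases of miR1509, with 1 G-U pair and 1 mismatch. The site is shown 5′ to 3′ with the base at the cleavage site in capitals, and miR1509 with the base that faces it.
site in ppa020475m: cggccgucauuuCauuguauaa
miR1509: uuauauaauGaaaucacggccg
The next highest was miR1023 on ppa002067m with 12 reads and a listed p of 0.686. miR5266 had 9 reads at nucleotide 111 of ppa013126m (listed p of 0.0159). miR2930 had 6 reads at nucleotide 631 of ppa013510m (listed p of 0.0190), with a normalized value of 0.6 reads. C and U make up 87.5% of miR2930, and whether the reads at its site also match other places was not tested. miR1509 had 32 reads in the small RNA library, miR5266 had 12 and miR2930 had 22, so the miRNAs with a low p were not those with many reads. These p-values carry no adjustment for how many pairs were listed.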

How the data were processed

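Fruit small RNA and degradome libraries, 1 of each, were told apart by the file listed for each sample. The deposited small RNA values are raw counts: the authors dropped low-quality and adaptor reads, reads under 18 nt and reads matching ribosomal, transfer and other RNA, then aligned the rest to plant miRNAs of miRBase. The deposited degradome table, made with CleaveLand, gives reads at the site as counts, normalized reads as a signal, and a p-value and an alignment score for each pair.

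Members and lists were chosen with earlier results of these data known. Homolog names and sequences came from the homolog list of the study, and hairpins from a shortened copy of its list of predictions. miR160, whose sequence differs between lists, was left out of distances. In 1 degradome pair a date cell was read as start and end. Distances, shared stretches and exact 95% intervals were computed in Python 3.11.15 (pandas 2.3.3, with SciPy 1.17.1 and NumPy 2.4.6), figures in matplotlib 3.10.9, and the functions were tested on simulated data. Named singly were the 10 highest counts, miRNAs within 2 edits of the homolog, with a shared stretch of 12 nt or more, with a cleavage site, ending in CCA or next to the minimum count. Alternatives changed the minimum count, exclusions, denominators, weighting and thresholds.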

Additional observations from a re-analysis of the deposited data

How the results depend on the processing

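With a minimum of 5 reads there were 95 miRNAs with 10722 reads, 0.476% of the reads of known miRNAs, and 7 resembled a lower-numbered miRNA. With a minimum of 20 there were 32 miRNAs with 10162 reads or 0.451%, and 7 had a cleavage site. With miR3946 kept, the reads were 11748 or 0.521%, and miR5229, with 1 read, was never included. The share was 0.453% of all listed reads and 5.95% without miR156 and miR157. Weighted by reads, 17.0% were 21 nt. Within 2 edits of the homolog were 13 miRNAs when unpaired ends were left uncounted, 3 lay within 1 edit and 42 within 4. A stretch of 14 nt left 2 miRNAs resembling a lower-numbered one, and so did a distance of at most 5 edits. A listed p under 0.05 left 3 miRNAs with a cleavage site. Of 37 alternatives, these 19 moved a value beyond its interval or a count by over 1.5 times, and 18 did not. No paired analysis was possible because each library is a single sample. Counts near 10 reads have intervals wider than the counts themselves, which limits any order among the rarer miRNAs.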

Other observations

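The names of miRNAs under 10 reads hold close copies of some of the 54. miR4376 differs from miR1318 (2 reads) by 1 edit and shares 18 bases with miR3627 (8 reads), which starts 3 bases earlier. miR5561 is contained whole in miR3706 (1 read), which has 3 more bases at its end. Capitals mark the stretch shared with the other name, in miR4376 that shared with miR1318.
miR4376: UCGCAGGAGAGAUGGCACUGuc
miR1318: UCGCAGGAGAGAUGGCACUGac
miR3627: augUCGCAGGAGAGAUGGCAC
miR5561: CAUUUGGGAGAAAUGGACA
miR3706: CAUUUGGGAGAAAUGGACAaga

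The 54 miRNAs carry 53 distinct seeds (bases 2 to 8). The shared seed belongs to miR1023 and miR5175, with 14 and 10 reads, whose sequences differ after the seed and whose names come from a moss and a grass. The seed is in capitals.
miR1023: aAGAAUUGaaaagaaugcaug
miR5175: aAGAAUUGgaggaaggagaga

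In base composition the 54 miRNAs spanned 23.8% G and C in miR5632 to 83.3% in miR5266, with a median of 42.9%. The median was also 42.9% in the miRNAs numbered 1000 or higher with under 10 reads, and 47.6% in the lower-numbered miRNAs with 10 or more reads. In 3 of the 54, which are miR3951, miR2930 and miR5175, a pair of nucleotides makes up over 85% of the sequence. Such cases number 5 among the 399 miRNAs numbered 1000 or higher with under 10 reads and 0 among the 37 lower-numbered miRNAs. miR2930 pairs over 15 bases with TBD-623-m0240-5p (13 reads), a predicted arm, the pairing stretch in capitals.
miR2930: uUCUCUCUCUCUCUCCcgucggcc
TBD-623-m0240-5p: agaggcGGAGAGAGAGAGAGAca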
